A study of Mus musculus with 10 samples.

Results

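The comparison described here is the interaction of genotype with fasting in mouse liver: for each gene, the fasted minus fed difference in Pml knockout minus the same difference in Pml wild type. A value above 0, called higher below, means that fasting moved the gene less far down or further up in knockout, and a value below 0, called lower, means the opposite. All 10 arrays of the series enter it, in 4 groups. The genes are those with a probe set of a single gene symbol whose signal lay above the median of the array on at least 2 arrays. They number 13942 of the 22180 genes that single-symbol probe sets stand for. Group labels took no part in that choice. As 2 arrays suffice, a gene can still pass through a single group in which it is high. The mice were females of the strain BALB/cByJ aged 3 months, either Pml wild type or Pml knockout, and each genotype was measured with ad libitum feeding (2 arrays per genotype) and after 6 h without food (3 arrays per genotype). Feeding was taken from the sample titles, because the submitters' note on food removal accompanies all samples. The labels give neither the design of the knockout allele nor the hour at which each liver was taken, and nothing in them says that each array is a separate animal, so p-values here measure the spread between these samples, which may be technical.

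PML is the protein that builds PML nuclear bodies, small structures of the cell nucleus that gather SUMO-modified proteins and that are known for roles in interferon responses, DNA damage responses and senescence. In a liver that goes from the fed to the fasted state, insulin falls while glucagon and glucocorticoids rise. FoxO1 enters the nucleus and raises genes such as Igfbp1, fatty acids reach the receptor PPARα and raise genes of fatty acid oxidation, and the SREBP factors that drive cholesterol and fatty acid synthesis become less active. An interaction asks whether these shifts have the same size in the presence and in the absence of PML.

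Pml itself, measured by 1 probe set, had log2 intensities of 8.37 and 8.22 (wild type fed), 6.92 and 6.41 (knockout fed), 7.72, 7.50 and 8.13 (wild type fasted) and 6.05, 6.35 and 6.14 (knockout fasted). Each knockout array lay below each wild type array, and the interaction for Pml was 0.03 (SE 0.29, adjusted p = 0.968). Hepatocyte markers such as albumin and transthyretin were measured on all arrays, and none of the 8 tested hepatocyte markers was called (2.11% of all genes were). At that share 8 genes can readily hold no call, so the count says little about hepatocytes. RNA comes from whole liver, so fewer cells of a type and less RNA per cell cannot be told apart in any value below.

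Of the 13942 genes, 294 (2.11%) had an interaction at an adjusted p under 0.05 (limma, Benjamini-Hochberg), 184 of them higher (1.32%) and 110 lower (0.789%). At an unadjusted p under 0.05 there were 2798 genes (20.1%). Among the 184 genes with a higher value, the median interaction was 1.08 on the log2 scale; the median fasting difference was -1.0 in wild type and 0.02 in knockout. Among the 110 with a lower value, the median interaction was -1.28, with a median fasting difference of 1.24 in wild type and -0.09 in knockout. The called genes were thus mostly ones that fasting moved in wild type: 276 of the 294 were called for fasting in wild type (21.4% of all genes were) and 22 in knockout (1.68% of all genes). The genotypes differed at an adjusted p under 0.05 in 245 of them when fasted (11.1% of all genes) and in 10 when fed (0.0861% of all genes). Each comparison was adjusted on its own, and the fed one rests on 2 arrays per genotype. Neither these counts nor those for fasting thus measure how alike the groups were. Dnmbp, for example, differed by 0.97 when fed (SE 0.14, adjusted p = 0.0551) and by -0.85 when fasted (SE 0.12, adjusted p = 0.00552). The fasting difference was smaller in knockout, whatever its sign, for 267 called genes (90.8%), against 61.7% of all genes. The smallest called interaction measured 0.63 and the largest 5.82, without regard to sign; 200 called genes reached 1 and 20 reached 2. When each array was centred on its own median, the calls numbered 221, and 42.1% of them were higher in place of 62.6%, so the balance between the directions depends on the scale of the arrays.

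**Figure D1:**
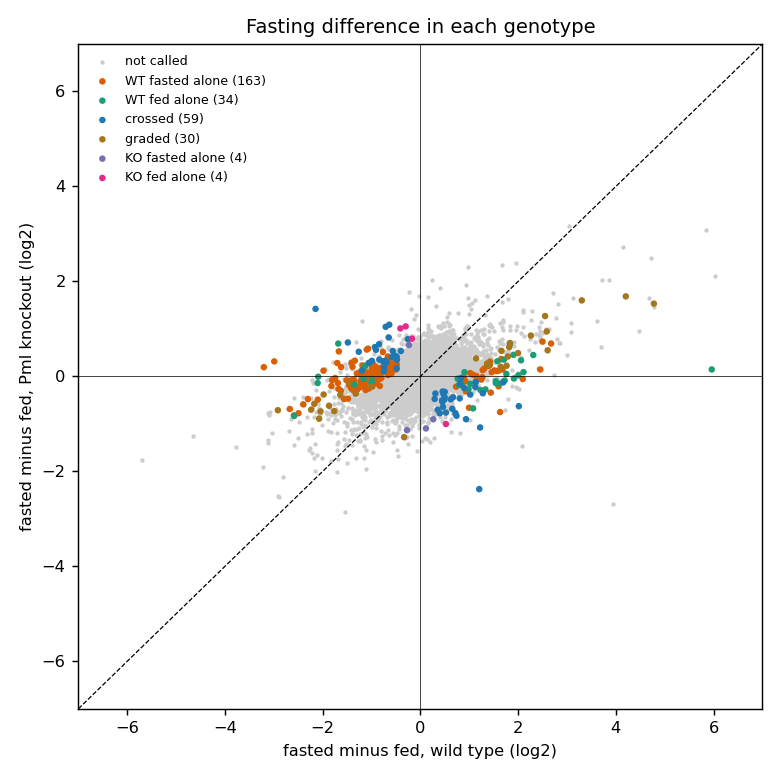
Each point is a gene; the horizontal axis gives the fasted minus fed log2 difference in wild type and the vertical axis the same in Pml knockout, with called genes coloured by the group that departs and the dashed line marking equal differences. The called higher and lower genes had median differences of -1.0 and 1.24 in wild type against 0.02 and -0.09 in knockout; 22 called genes also passed the test of fasting in knockout.

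The same interaction can come from any of the groups, so each gene was sorted by the group whose mean stood apart. A group departs alone when the gap from its mean to the nearest other mean is at least as wide as the range of the other 3 means. The remaining genes were sorted as crossed or graded. Such a gene is crossed when fasting moves it in opposite directions in the genotypes and the genotypes differ in opposite directions in the feeding states. It is graded otherwise. A gene with a single departure, such as Gbp3, can thus also meet the rule for crossed without being counted there. Fasted wild type departed alone in 163 of the 294 called genes (55.4%, against 25.1% of all genes), low in 132 and high in 31. Fed wild type departed alone in 34 (11.6%, against 9.9% of all genes), low in 25 and high in 9. A further 59 genes were crossed (20.1%, against 11.2%) and 30 graded (10.2%, against 34.4%). Either knockout group departed alone in few called genes: fasted knockout in 4 (1.36%, against 9.54% of all genes) and fed knockout in 4 (1.36%, against 9.82%). In each of these 205 single departures, all arrays of the departing group lay outside the range of the other arrays. Among all genes with the same departure, this held for 2146 of 3502 with fasted wild type (15.4% of all genes tested) and 516 of 1380 with fed wild type (3.7%). It held for 343 of 1330 with fasted knockout (2.46%) and 575 of 1369 with fed knockout (4.12%). The same arrays enter the call, which favours such a separation, so these counts are a description.

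**Figure D2:**
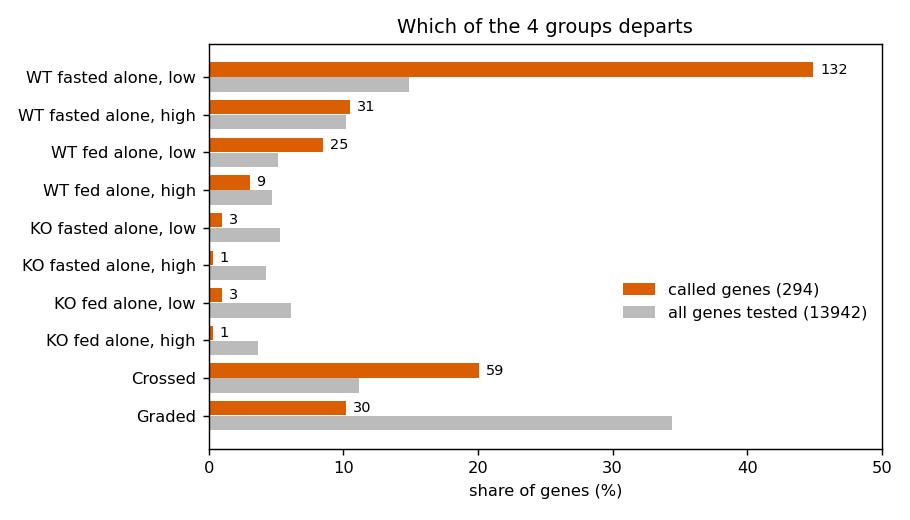
Bars give the share of genes, in percent, in which each group's mean departs low or high, for the 294 called genes (orange, with the number of genes at the bar) and for all 13942 genes tested (grey). Fasted wild type standing low alone takes the longest bar among called genes, 132 genes or 44.9%, against 14.9% of all genes.

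In 132 called genes fasted wild type stood low alone. The sorting rule itself then places the fasted knockout mean nearer to the fed means than to fasted wild type. That placement is thus no separate result. Lgr5, a Wnt target and R-spondin receptor of hepatocytes around the central vein, had log2 intensities of 7.97 and 7.54 (wild type fed), 7.80 and 6.40 (knockout fed), 4.52, 4.97 and 4.17 (wild type fasted) and 7.57, 7.41 and 6.90 (knockout fasted). The fasted wild type arrays lay at or below the array median, where a value holds little signal, and each fasted knockout array lay within the range of the fed arrays. The interaction was 3.40 (SE 0.55, adjusted p = 0.0278), and it was 2.42 when values below the array median were raised to it. Cyp2g1, a cytochrome P450, had 8.75 and 8.33 (wild type fed), 8.47 and 7.99 (knockout fed), 5.42, 5.36 and 5.86 (wild type fasted) and 8.92, 8.99 and 7.73 (knockout fasted). With fasting it fell by 2.99 in wild type, and the knockout difference was 0.32, which gave an interaction of 3.31 (SE 0.50, adjusted p = 0.0265). Cyp2r1, the vitamin D 25-hydroxylase, stood at 8.79 and 8.58 (wild type fed), 7.99 and 8.13 (knockout fed), 6.37, 5.85 and 5.83 (wild type fasted) and 7.59, 7.27 and 7.27 (knockout fasted), so that fasted knockout lay between fasted wild type and the fed groups. Its interaction of 1.99 (SE 0.26, adjusted p = 0.0221) lost its call in 2 of the 10 omissions of 1 array, those of fed knockout replicate 1 and of replicate 2 (adjusted p up to 0.0809).

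Other named genes with fasted wild type low alone include enzymes of steroid and nucleotide metabolism. Akr1c6, a hydroxysteroid dehydrogenase, had an interaction of 2.10 (SE 0.37, adjusted p = 0.0333) with a fasting difference of -1.98 in wild type and 0.12 in knockout. Hsd3b3, another steroid dehydrogenase whose close relatives may share its probes, measured 1.81, adjusted p = 0.0426. Dnph1, a nucleotide hydrolase, had log2 intensities of 6.80, 6.51 and 6.86 (wild type fasted) and 8.76, 8.40 and 8.28 (knockout fasted), with the fed arrays of both genotypes between 8.82 and 9.19. Its interaction was 1.82 (SE 0.26, adjusted p = 0.0265). Gins1, a subunit of the replicative helicase, had an interaction of 2.19, adjusted p = 0.0325, but all its arrays in fasted wild type and fed knockout lay at or below the array median, and with those values raised to the median it was 0.71 and no longer called (adjusted p = 0.207). Stap1, a signalling adaptor, measured 1.98, adjusted p = 0.0325.

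Interferon-stimulated genes gave 4 calls, each with fasted wild type low alone. Igtp, an immunity-related GTPase, had log2 intensities of 9.35 and 9.02 (wild type fed), 9.08 and 9.12 (knockout fed), 7.53, 7.14 and 8.02 (wild type fasted) and 9.02, 9.35 and 9.52 (knockout fasted). The 3 fasted wild type arrays were the lowest of the 10, with every fasted knockout array about 1 or more above them. The interaction was 1.82 (SE 0.34, adjusted p = 0.037). Gbp3 and Gbp7, guanylate-binding proteins, measured 1.66, adjusted p = 0.0391, and 1.55, adjusted p = 0.0426; Ifih1, the RNA sensor MDA5, measured 1.02, adjusted p = 0.0426. Gbp genes resemble each other, so a value can hold signal of a relative. Igtp, Gbp3 and Gbp7 each lost the call in 8 of the 10 omissions of 1 array, and Ifih1 in 9. These 4 were the called ones among 35 tested interferon-stimulated genes (11.4%, against 2.11% of all genes), all higher; the other 31 did not pass the test. The median interaction of the list was 0.85, against 0.04 over all genes, and 31 of its 35 members lay above 0 (7575 of all 13942 genes did). The list's median fasting difference was -0.72 in wild type and 0.20 in knockout. Apol9b, an apolipoprotein L that is not in the list, measured 1.71, adjusted p = 0.0278, a value that its relative Apol9a may share through common probes. Gbp7 and Apol9b were picked after their values had been seen.

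The stretches of 250 bases before the start of Igtp, Gbp3, Gbp7 and Apol9b are shown because they carry the letters GAAA, 2 bases of any kind and GAAA again, or the reverse complement, the core of the element that interferon-activated factors are known to bind. They come from RefSeq on GRCm38.p6, are written on the strand of the gene, and have the matching bases in capitals; adjoining matches run together. They lie at chr11:58199306-58199555 for Igtp, chr3:142559794-142560043 for the first listed start of Gbp3, chr3:142530086-142530335 for Gbp7 and chr15:77728822-77729071 for the first listed start of Apol9b, all on the plus strand. The second listed start of Gbp3 and the listed start of Ifih1 did not hold the letters in this window.
Igtp: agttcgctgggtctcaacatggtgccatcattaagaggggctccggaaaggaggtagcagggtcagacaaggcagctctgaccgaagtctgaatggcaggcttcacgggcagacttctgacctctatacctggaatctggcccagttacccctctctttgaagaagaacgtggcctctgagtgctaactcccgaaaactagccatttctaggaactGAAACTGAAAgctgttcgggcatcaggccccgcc
Gbp3: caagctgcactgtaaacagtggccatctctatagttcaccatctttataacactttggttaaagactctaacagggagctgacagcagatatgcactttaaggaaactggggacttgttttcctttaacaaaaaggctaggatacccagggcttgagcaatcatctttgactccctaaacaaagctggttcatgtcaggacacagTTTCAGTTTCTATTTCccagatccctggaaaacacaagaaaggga
Gbp7: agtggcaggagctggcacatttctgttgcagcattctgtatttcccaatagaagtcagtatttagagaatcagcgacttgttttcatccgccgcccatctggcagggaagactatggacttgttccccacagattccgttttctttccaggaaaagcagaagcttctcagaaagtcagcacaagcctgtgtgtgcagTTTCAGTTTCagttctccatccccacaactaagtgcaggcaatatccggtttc
Apol9b: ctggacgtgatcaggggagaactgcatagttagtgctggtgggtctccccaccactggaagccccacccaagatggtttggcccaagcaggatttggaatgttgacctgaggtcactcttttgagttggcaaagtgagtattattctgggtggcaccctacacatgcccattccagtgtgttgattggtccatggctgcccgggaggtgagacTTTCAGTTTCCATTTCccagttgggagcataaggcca
In Igtp the capitals lie 34 to 25 bases before the start, in Gbp3 45 to 30, in Gbp7 53 to 44 and in Apol9b 37 to 22. Of 145 called genes with a higher interaction and a listed promoter, 10 (6.9%) held the letters on either strand, against 354 of 10936 genes (3.24%); of 86 with a lower interaction, 1 (1.16%) did. The letters were chosen after the values had been seen, and a match describes these letters, not a bound site.

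Macrophages also express many interferon-stimulated genes, so macrophage markers are given beside them. Of 12 macrophage markers tested, among them Adgre1, Clec4f, Cd68 and the C1q chains, none was called (2.11% of all genes were). At that share 12 genes can readily hold no call. An interaction above 0 was seen in 11 of them, against 7575 of all 13942 genes, and the median of the markers was 0.44. Their summed intensity ran from 4788 to 5057 in fasted wild type, 5780 to 6764 in fasted knockout, 5227 to 5509 in fed knockout and 5016 to 6329 in fed wild type. No marker was at 0, and the part of these markers in the interferon result was not tested.

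Genes of cell cycle and replication gave 2 calls in the same direction. Mcm4, a subunit of the replicative helicase, had log2 intensities of 6.76 and 6.59 (wild type fed), 5.76 and 5.97 (knockout fed), 5.37, 4.93 and 5.26 (wild type fasted) and 6.92, 6.68 and 6.14 (knockout fasted), crossed between the groups: lower after fasting in wild type and without such a fall in knockout. The interaction was 2.20 (SE 0.31, adjusted p = 0.0265); it was 1.85 with fasted wild type, which lay below the array median, raised to it. Pcna, the sliding clamp of DNA polymerases, was low in fasted wild type alone and measured 0.69, adjusted p = 0.0488. Among 18 tested genes of the list these 2 (11.1%, against 2.11%) were called, both higher, with a list median of 0.68. Pcna lost its call whichever array was left out, so it rests on the full set of arrays.

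Glycogen genes divided between directions. Gyg, glycogenin, which starts a glycogen chain, measured 1.09, adjusted p = 0.0426, and Phka2, a subunit of phosphorylase kinase in liver, 1.14, adjusted p = 0.0278; in both, fasted wild type alone was low. Phka2 was at 7.61, 7.68 and 7.75 in fasted wild type and between 8.54 and 9.26 on the other arrays. Ppp1r3g, the subunit that directs protein phosphatase 1 to glycogen, went the other way with the largest interaction of all called genes. Its log2 intensities were 6.41 and 5.96 (wild type fed), 11.32 and 12.83 (knockout fed), 11.61, 12.57 and 12.27 (wild type fasted) and 12.51, 12.87 and 11.27 (knockout fasted). Fed wild type was more than 4 log2 units below each other group, while fed knockout lay already at the level that wild type reached after fasting. The fasting difference was 5.96 in wild type and 0.15 in knockout, the interaction -5.82 (SE 0.75, adjusted p = 0.0221), and the fed genotypes themselves differed by 5.88 (adjusted p = 0.0256). Omitting replicate 2 of fed knockout ended the call (adjusted p = 0.0735), and the adjusted p ran from 0.0123 to 0.0824 over 22 alternatives. Of 12 tested genes in the glycogen list, 2 were higher and 1 lower (25% called, against 2.11% of all genes), with a median of 0.13.

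**Figure D3:**
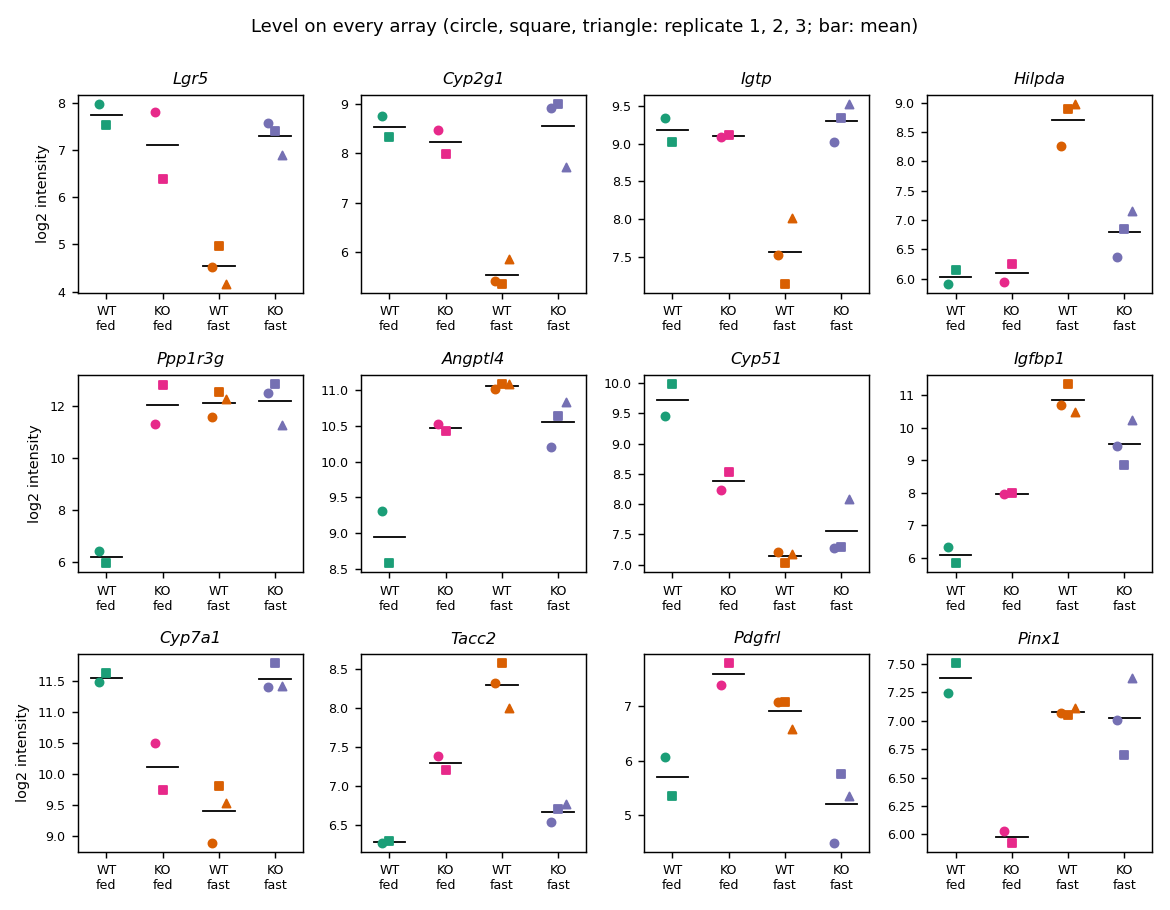
Log2 intensity of 12 called genes on every array, with circles, squares and triangles for replicates 1, 2 and 3 of each group and a bar at the group mean (2 arrays per fed group, 3 per fasted group; each panel has its own vertical range). Fasted wild type stands apart in Lgr5, Cyp2g1, Igtp and Hilpda, fed wild type in Ppp1r3g, Angptl4 and Cyp51, and fed knockout in Pinx1, while the means are graded in Igfbp1 and crossed in Cyp7a1, Tacc2 and Pdgfrl.

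Ppp1r3g leads the 25 genes in which fed wild type stood low alone, that is, genes raised by fasting in wild type and already high in fed knockout. Angptl4, an inhibitor of lipoprotein lipase that PPARα raises, had 9.31 and 8.58 (wild type fed), 10.52 and 10.42 (knockout fed), 11.01, 11.09 and 11.08 (wild type fasted) and 10.20, 10.64 and 10.84 (knockout fasted). Fed knockout sat within the range of fasted knockout, far above fed wild type, and the interaction was -2.02 (SE 0.32, adjusted p = 0.0277). Lpin1 and Lpin2, phosphatidate phosphatases that also act as nuclear coregulators, measured -1.98, adjusted p = 0.0488, and -1.76, adjusted p = 0.0278. Lpin1 was at 8.61 and 8.94 (wild type fed) and 10.52 and 10.52 (knockout fed). Zbtb16, the zinc finger factor PLZF, had 7.73 and 7.51 (wild type fed), 9.19 and 9.12 (knockout fed), 9.16, 9.20 and 9.69 (wild type fasted) and 8.81, 9.34 and 9.05 (knockout fasted), which gave an interaction of -1.81 (SE 0.27, adjusted p = 0.0265); the gene lies on chromosome 9, as Pml does.

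Further named genes with fed wild type low alone include a transcription factor, genes of cytokine signalling and a nuclear receptor. Cebpb, a transcription factor of fasting and of the acute phase, measured -1.45, adjusted p = 0.0426, with 7.24 and 7.28 in fed wild type and between 8.01 and 9.30 elsewhere; it lost its call whichever array was left out. Il1rn, the interleukin-1 receptor antagonist, measured -1.96, adjusted p = 0.0447, and Il6ra, the interleukin-6 receptor, -0.97, adjusted p = 0.0291. Nr1i2, the xenobiotic receptor PXR, measured -0.81, adjusted p = 0.0333, with fed wild type the lowest group at 10.11 and 10.13. Lgals4, a galectin, had 7.41 and 6.95 (wild type fed) and 8.75 and 8.44 (knockout fed), with an interaction of -1.72 (SE 0.29, adjusted p = 0.0291). Il6ra was the called one among 25 acute phase genes (4.0%, against 2.11% of all genes), whose median interaction was 0.04, the same as over all genes. Across the 294 called genes, the fed knockout mean lay away from fed wild type in the direction of fasted wild type in 278 (94.6%), against 62.3% of all genes; the same arrays enter the call, so this is a description.

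The fasting difference of fatty acid oxidation genes was smaller in knockout than in wild type by the median of the list. Of 39 tested genes in the list of oxidation and ketogenesis, 5 were called (12.8%, against 2.11% of all genes), all lower. The list also holds thioesterases, Pex11a, Pdk4, Fgf21 and Angptl4. Among the 5 called genes, Acaa1b was the only enzyme of beta-oxidation, and no enzyme of ketogenesis was called. Of the 39, 36 had an interaction below 0 (6367 of all 13942 genes did). The list's median was -0.50, with a median fasting difference of 0.78 in wild type and 0.24 in knockout. Acot2, a mitochondrial acyl-CoA thioesterase, had 9.10 and 9.17 (wild type fed), 9.73 and 9.39 (knockout fed), 13.10, 13.18 and 13.73 (wild type fasted) and 10.43, 11.76 and 11.54 (knockout fasted). Both genotypes rose, by 4.20 and 1.69 (adjusted p = 0.000251 and 0.0483), and the interaction of -2.52 (SE 0.49, adjusted p = 0.0426) measures the distance between these rises. Acot3, a peroxisomal relative, measured -1.86, adjusted p = 0.0426; Acot genes resemble each other and may share probes. Pex11a, a protein of peroxisome division, measured -1.40, adjusted p = 0.0278, Acaa1b, a peroxisomal thiolase named after its value had been seen, -1.65, adjusted p = 0.0488, and Angptl4 is given above. Acot2, Acot3, Acaa1b and Pex11a lost their calls in 7 to 8 of the omissions of 1 array, and Angptl4 in 5.

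Lipid droplet genes gave 2 calls. Hilpda, a droplet protein that inhibits lipolysis, had 5.92 and 6.15 (wild type fed), 5.94 and 6.26 (knockout fed), 8.26, 8.89 and 8.97 (wild type fasted) and 6.37, 6.84 and 7.16 (knockout fasted); fasted wild type alone was high, and the interaction was -1.98 (SE 0.37, adjusted p = 0.037). Pnpla2, the triglyceride lipase ATGL, measured -1.13, adjusted p = 0.0391, with a fasting difference of 1.83 in wild type and 0.70 in knockout. These 2 were the called ones among 15 tested genes (13.3%, against 2.11% of all genes). Of the 15, 14 were below 0 (6367 of all 13942 genes were), with a median of -0.85. Pctp, a phosphatidylcholine transfer protein outside the list, measured -2.05 (SE 0.34, adjusted p = 0.0278) with a fasting difference of 2.60 in wild type and 0.55 in knockout.

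Cholesterol synthesis ran the other way, with a smaller drop from the fed to the fasted level in knockout by the median of the list. Of 19 tested genes, 5 were called (26.3%, against 2.11%), all higher. All 19 had an interaction above 0 (7575 of all 13942 genes did), with a median of 0.99. The list's median fasting difference was -1.76 in wild type and -0.70 in knockout. Mvk, mevalonate kinase, had 8.22 and 8.60 (wild type fed), 7.25 and 7.30 (knockout fed), 5.43, 5.39 and 5.66 (wild type fasted) and 6.78, 6.26 and 6.66 (knockout fasted). Fed knockout was about 1 log2 unit below fed wild type, and fasted knockout about 1 above fasted wild type, so the groups were graded and each pair of genotypes was separate. The interaction was 2.21 (SE 0.25, adjusted p = 0.017), and omitting either array of fed knockout ended the call (adjusted p = 0.0572 and 0.0735). Cyp51, the sterol demethylase, had 9.46 and 9.99 (wild type fed), 8.24 and 8.54 (knockout fed), 7.21, 7.02 and 7.17 (wild type fasted) and 7.28, 7.29 and 8.09 (knockout fasted), with fed wild type high alone and an interaction of 1.75 (SE 0.35, adjusted p = 0.0426). Nsdhl, Msmo1 and Fdft1, enzymes of the same route, measured 1.60, adjusted p = 0.0426, 1.54, adjusted p = 0.0426, and 1.25, adjusted p = 0.0463. Of the 10 omissions of 1 array, Cyp51 lost its call in 8 and Nsdhl, Msmo1 and Fdft1 in 9 each, against 2 for Mvk. Mmab, which prepares cobalamin for its mitochondrial enzyme and is known to share a promoter with Mvk, measured 1.60 (SE 0.23, adjusted p = 0.0265). The summed intensity of the list was 24980 to 32150 in fed wild type, 17550 to 19590 in fed knockout, 10410 to 11950 in fasted wild type and 11860 to 14010 in fasted knockout, so the fasted arrays were below the fed ones in both genotypes and the distance differed.

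Of the 9 genes in which fed wild type stood high alone, Fabp5, a fatty acid binding protein, had the largest interaction, 2.08 (SE 0.44, adjusted p = 0.0472), with log2 intensities of 9.16 and 8.79 (wild type fed), 7.65 and 8.10 (knockout fed), 6.96, 7.21 and 6.47 (wild type fasted) and 7.77, 7.39 and 8.46 (knockout fasted). Pde4b, a cyclic AMP phosphodiesterase, measured 1.18, adjusted p = 0.0394. Ola1, an ATPase related to Obg proteins, measured 0.91, adjusted p = 0.0278, with 9.19 and 9.21 in fed wild type and between 8.12 and 8.70 on all other arrays. The zinc finger genes Zfp157 and Zfp324 measured 1.35 and 1.11, and Chsy3, a chondroitin synthase, 0.87. With the mean of its 2 kept probe sets, Chsy3 measured 0.29 and was not called (adjusted p = 0.333).

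Insulin and FoxO genes showed large single values and no shift of the list. Igfbp1, the insulin-like growth factor binding protein that FoxO1 raises and insulin lowers, had 6.33 and 5.83 (wild type fed), 7.95 and 7.98 (knockout fed), 10.72, 11.36 and 10.49 (wild type fasted) and 9.43, 8.84 and 10.23 (knockout fasted). Fed knockout stood about 2 log2 units above fed wild type, and all 3 fasted knockout arrays lay below the fasted wild type arrays, 2 of them by more than 1 unit. The fasting difference was 4.78 in wild type and 1.53 in knockout, and the interaction -3.25 (SE 0.52, adjusted p = 0.0278). Its stretch of 250 bases before the start, chr11:7197537-7197786 on the plus strand (RefSeq, GRCm38.p6), is shown because it holds the letters CAAAACA, part of the insulin response element of this promoter, in capitals 108 to 102 bases before the start.
Igfbp1: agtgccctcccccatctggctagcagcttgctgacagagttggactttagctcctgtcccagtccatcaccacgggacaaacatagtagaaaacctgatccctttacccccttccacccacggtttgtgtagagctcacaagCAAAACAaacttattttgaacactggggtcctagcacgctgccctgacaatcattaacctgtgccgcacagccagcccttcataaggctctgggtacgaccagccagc
These 7 letters, on either strand, were in 545 of 10936 promoters (4.98%), in 5 of 86 called lower genes (5.81%) and in 8 of 145 called higher genes (5.52%). Foxo1 itself was crossed, with 9.29 and 9.11 (wild type fed), 9.88 and 9.83 (knockout fed), 10.25, 10.33 and 10.42 (wild type fasted) and 9.51, 9.91 and 9.79 (knockout fasted). Fasting raised it by 1.13 in wild type and the knockout difference was -0.12; the interaction was -1.25 (SE 0.19, adjusted p = 0.0265). Among 19 tested genes of this list 2 were called (10.5%, against 2.11% of all genes), both lower, with a median of -0.09. Igfals, the subunit that holds insulin-like growth factors in serum and that growth hormone raises, measured 0.80, adjusted p = 0.0438. Igfals and Hsd3b3 were the 2 called among 17 growth hormone and steroid genes (11.8%, against 2.11% of all genes). The median of that list was 0.26 and lay between 0.19 and 0.67 when 1 array was left out, highest without fed knockout replicate 1.

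Fkbp5, Cyp2b10 and Jun had graded means. Fkbp5, a glucocorticoid-induced chaperone partner, measured -1.64, adjusted p = 0.0426, with a fasting difference of 2.59 in wild type and 0.95 in knockout. Its call was lost in 9 of the 10 omissions of 1 array. Cyp2b10, the cytochrome P450 that the receptor CAR raises, had 9.51 and 9.54 (wild type fed), 10.44 and 10.39 (knockout fed), 11.93, 12.12 and 12.17 (wild type fasted) and 11.67, 11.77 and 11.62 (knockout fasted). It rose with fasting in both genotypes, by 2.55 and 1.27 (adjusted p = 9.95e-06 and 0.0066), from a fed level that was higher in knockout. The interaction was -1.28 (SE 0.15, adjusted p = 0.0188), and omitting either array of fed knockout ended the call (adjusted p = 0.0735 and 0.0769); Cyp2b genes may share probes. With Nr1i2 it was one of 2 called among 25 drug metabolism genes (8.0%, against 2.11% of all genes), whose median was -0.01. Jun, an immediate early gene, rose in both genotypes, by 3.30 and 1.60, with an interaction of -1.70 (SE 0.35, adjusted p = 0.0426). Jun lost its call in 9 of the 10 omissions of 1 array. It was the called one among 16 tested immediate early genes (6.25%, against 2.11% of all genes). Of these 16, 14 lay below 0 (6367 of all 13942 genes did), with a median of -0.56.

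Cyp7a1, the rate-limiting enzyme of bile acid synthesis, had the largest interaction among called higher genes. Its log2 intensities were 11.49 and 11.64 (wild type fed), 10.50 and 9.75 (knockout fed), 8.90, 9.81 and 9.54 (wild type fasted) and 11.41, 11.79 and 11.44 (knockout fasted). The order of the feeding states turned round: fed above fasted in wild type, fasted above fed in knockout, with no overlap between the arrays on either side. With fasting it fell by 2.15 in wild type (adjusted p = 0.00124) and rose by 1.42 in knockout (adjusted p = 0.0449). The interaction was 3.57 (SE 0.40, adjusted p = 0.017); omitting replicate 2 of fed knockout ended the call (adjusted p = 0.0735), and the value lay between 3.19 and 3.95 over 22 alternatives. It was the called one among 19 bile acid genes (5.26%, against 2.11% of all genes), whose median was 0.12.

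Crossing also marked genes that were lower. Tacc2, a coiled-coil protein of centrosomes and microtubules, had 6.28 and 6.30 (wild type fed), 7.39 and 7.21 (knockout fed), 8.32, 8.57 and 8.0 (wild type fasted) and 6.54, 6.70 and 6.77 (knockout fasted). Fasted wild type was above fed wild type by 2.01, while fasted knockout was below fed knockout by 0.63, a difference that did not pass the test (adjusted p = 0.0794). The interaction was -2.64 (SE 0.23, adjusted p = 0.00743), the smallest adjusted p of the comparison, and Tacc2 was the one gene that kept its call in each of the 10 omissions of 1 array. Pdgfrl, a secreted protein with similarity to the PDGF receptor, had 6.06 and 5.35 (wild type fed), 7.38 and 7.78 (knockout fed), 7.08, 7.07 and 6.57 (wild type fasted) and 4.50, 5.76 and 5.35 (knockout fasted). It rose in wild type by 1.20 (adjusted p = 0.0366) and fell by 2.37 in knockout (adjusted p = 0.0296), with an interaction of -3.58 (SE 0.50, adjusted p = 0.0265). On 2 fasted knockout arrays and 1 fed wild type array Pdgfrl lay at or below the array median. With those values raised to it, the interaction was -3.11. Dnmbp, an exchange factor for Cdc42, measured -1.82 (SE 0.18, adjusted p = 0.0152) and lost its call when replicate 2 of fed knockout was omitted (adjusted p = 0.0735). Tmc7, Adam11, Rhpn2, Ttc23 and Map3k13 measured -2.30, -1.83, -1.63, -1.57 and -1.49.

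Crossed genes that were higher, beside Cyp7a1 and Mcm4, included Lsm8, an RNA-binding subunit of the U6 particle, with 6.87 and 6.72 (wild type fed), 6.31 and 6.04 (knockout fed), 6.22, 6.17 and 6.04 (wild type fasted) and 7.10, 6.82 and 7.07 (knockout fasted). It fell by 0.65 in wild type (adjusted p = 0.00826), rose by 0.82 in knockout (adjusted p = 0.0323) and had an interaction of 1.47 (SE 0.19, adjusted p = 0.0221). Nuak2, a kinase related to AMPK, measured 1.78, adjusted p = 0.0265. Trim13, an endoplasmic reticulum ubiquitin ligase, measured 1.75, Fuca2, a fucosidase, 1.47, Osgin2 1.73 and Mis18a, a factor of centromere assembly, 1.52. Part of the arrays of Trim13, Osgin2 and Mis18a lay at or below the array median, and with those values raised to it they measured 1.04, 0.87 and 0.88; Osgin2 was then no longer called (adjusted p = 0.0869).

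Of the genes in which fasted wild type stood high alone, Ccng2, an atypical cyclin that FoxO factors raise, had 7.21 and 6.37 (wild type fed), 7.53 and 7.52 (knockout fed), 9.31, 9.32 and 9.10 (wild type fasted) and 7.28, 7.37 and 8.36 (knockout fasted); the interaction was -2.31 (SE 0.45, adjusted p = 0.0426). Ccng1, a p53 target of the same family, was low in fasted wild type alone and measured 0.77, adjusted p = 0.037. It was the called one among 20 tested p53 and growth arrest genes (5.0%, against 2.11% of all genes). The median of that list was -0.12, with 8 members above 0 and 12 below. Gadd45b, among the 12, measured -2.24 and was not called (adjusted p = 0.0832). Ccn2, a matricellular protein that YAP and TGF-beta raise, had 8.37, 8.25 and 8.75 (wild type fasted) and 6.91, 6.72 and 7.59 (knockout fasted), with an interaction of -2.15 (SE 0.37, adjusted p = 0.0318). Tnfrsf12a, the TWEAK receptor, measured -1.77, Cnnm4, a magnesium transporter, -1.78, adjusted p = 0.0278, Sh3pxd2a, a podosome scaffold, -1.65, adjusted p = 0.0348, and Atg16l2, an autophagy gene, -1.81, adjusted p = 0.0474. A single immunoglobulin kappa variable segment measured -2.38, adjusted p = 0.0427. All 3 tested B and plasma cell markers lay below 0 (6367 of all 13942 genes did), with none called (2.11% of all genes were). The part of these cells in the value of the segment was not tested.

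A knockout group stood apart alone in few genes. Pinx1, a telomerase inhibitor, had 7.25 and 7.51 (wild type fed), 6.03 and 5.93 (knockout fed), 7.07, 7.05 and 7.11 (wild type fasted) and 7.01, 6.70 and 7.37 (knockout fasted), low in fed knockout alone, with an interaction of 1.35 (SE 0.25, adjusted p = 0.0355). Rpusd2, a pseudouridine synthase, measured 0.97, adjusted p = 0.0426, low in the same group. Both its fed knockout arrays lay at or below the array median, and with them raised to it the value was 0.81. Plekhf1, a lysosomal protein, was high in fed knockout alone and measured -1.53, adjusted p = 0.0291. In fasted knockout alone, Zfand4, a zinc finger protein, was low at 7.29, 7.48 and 7.54, against 8.07 to 8.69 on the other arrays, with an interaction of -1.21 (SE 0.25, adjusted p = 0.0438). Rhd, a blood group protein of red cells, measured -1.17, adjusted p = 0.0265 with all 3 fasted knockout arrays below the array median, and -0.67 with them raised to it; no red blood cell marker passed the filter.

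Lists without called genes (2.11% of all genes were called) lay near the median of all genes or away from it. Oxidative phosphorylation (25 tested), NRF2 targets (17), endoplasmic reticulum chaperones (23), gluconeogenesis and amino acid catabolism (26), periportal hepatocyte genes (13) and PML nuclear body and SUMO genes (21) had medians of -0.01, -0.03, -0.05, -0.10, -0.06 and 0.05. Heat shock genes had a median of -0.44 with all 15 tested members below 0 (6367 of all 13942 genes were). Among them Hspa1b, an inducible HSP70 whose near-identical copy may share its probes, measured -1.79, adjusted p = 0.0644. Metallothioneins and zinc handling (7 tested) and clock repressors and outputs (12 tested) had medians of -0.36 and 0.32. The evening-phase clock genes, also without a call, are given below. Pericentral hepatocyte genes, beyond Lgr5, held 1 further call, Rnf43, a ubiquitin ligase that restrains Wnt receptors, at 1.31, adjusted p = 0.0355. The 2 calls were among 15 tested genes of that list (13.3%, against 2.11% of all genes), with a median of 0.19. In lipogenesis and glycolysis (23 tested) Lpin1 was the called one (4.35%, against 2.11% of all genes), with a median of -0.12. In the ATF4 list (15 tested) Cebpb was (6.67%), with a median of -0.35.

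**Figure D4:**
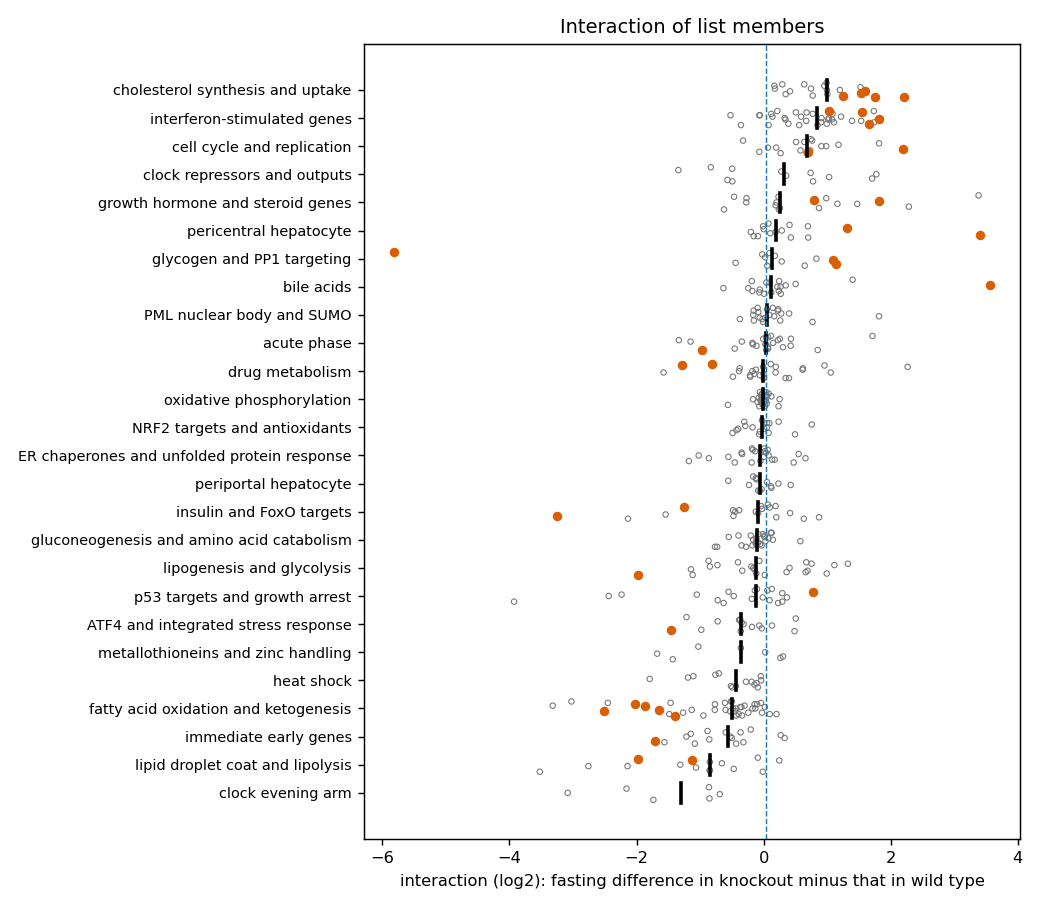
Each point is a tested member of a gene list, placed by its interaction in log2 units (knockout fasting difference minus that of wild type); filled orange points are called at an adjusted p under 0.05, open points are not, black bars mark list medians and the dashed line the median of all genes, 0.04. Members of cholesterol synthesis and of interferon-stimulated genes lie mostly to the right, with medians of 0.99 and 0.85, and those of fatty acid oxidation and lipid droplets to the left, with medians of -0.50 and -0.85.

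Clock genes carried large differences that were not called, and in these genes the fasted knockout arrays differed among themselves. Arntl, which encodes the clock factor BMAL1, had 7.50 and 7.10 (wild type fed), 5.72 and 6.02 (knockout fed) and 9.29, 9.04 and 9.16 (wild type fasted), but 4.60, 4.54 and 8.87 (knockout fasted). Replicate 3 thus sat at the level of fasted wild type and replicates 1 and 2 below the fed knockout arrays, and the interaction was -1.74 (SE 1.48, adjusted p = 0.547), or -1.09 with values at or below the array median raised to it. Npas2, a partner of BMAL1, showed the same division, with 3.88, 4.88 and 8.93 in fasted knockout and an interaction of -3.08 (SE 1.63, adjusted p = 0.324). Dbp, a clock output, and Nr1d1, a clock repressor, both of the opposite phase, had 10.05, 9.80 and 6.0 and 8.55, 8.86 and 7.21 in fasted knockout, with interactions of 1.77, adjusted p = 0.498, and 1.71, adjusted p = 0.151. Of 6 evening-phase clock genes tested none was called (2.11% of all genes were), all lay below 0 (6367 of all 13942 genes did), and the median was -1.30.

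Cdkn1a, the cell cycle inhibitor p21, was divided in the same way, with 11.30, 11.29 and 11.39 (wild type fasted) and 5.26, 6.27 and 10.84 (knockout fasted), and its interaction of -3.93 (SE 1.87, adjusted p = 0.277) was not called. Pdk4, the kinase that restrains pyruvate dehydrogenase, had 12.30, 12.67 and 12.67 (wild type fasted) and 7.57, 9.87 and 10.63 (knockout fasted), with an interaction of -3.32 (SE 0.96, adjusted p = 0.106). In Pdk4, replicate 1 stayed at the fed level and replicates 2 and 3 lay between it and fasted wild type. The droplet proteins Cidec and Plin4 measured -2.76, adjusted p = 0.0565, and -3.52, adjusted p = 0.0556, and the hormone gene Fgf21 -2.45, adjusted p = 0.0677. All 5 were picked after their values had been seen. In all, 39 genes with an interaction of at least 2 in size were not called; their median SD within fasted knockout was 0.83, against 0.41 for the 20 called genes of that size, and choosing large differences that were not called itself favours a large spread.

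**Figure D5:**
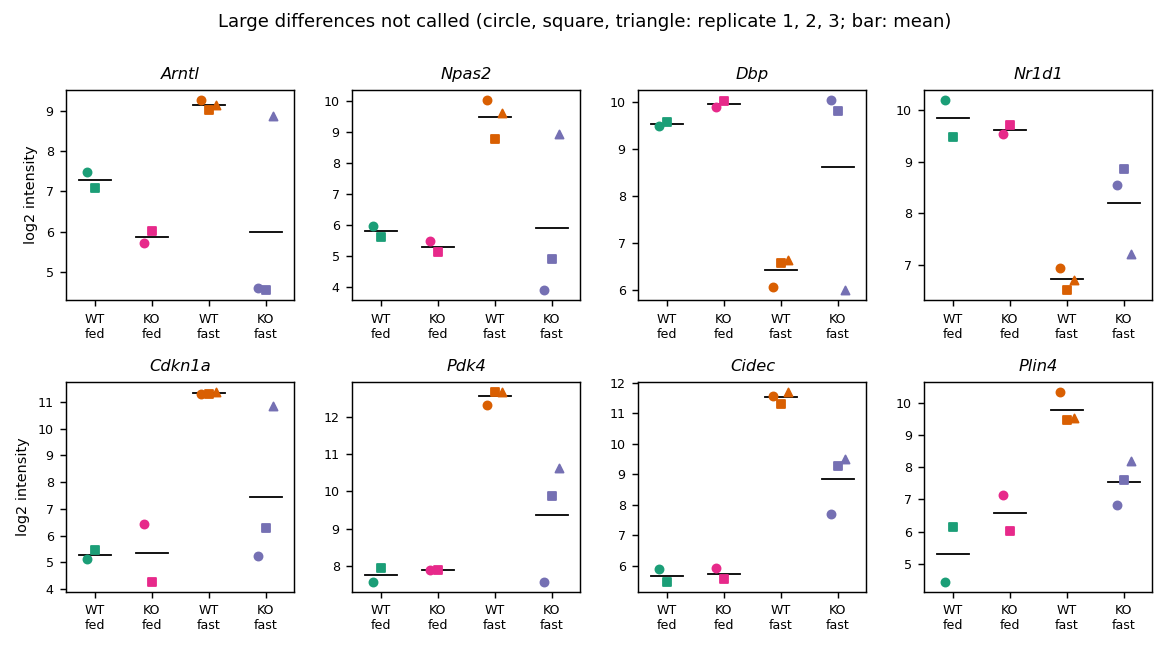
Log2 intensity on every array of 8 genes with large interactions that were not called; circles, squares and triangles are replicates 1, 2 and 3 of each group, bars are group means, and each panel has its own vertical range. In Arntl, Npas2, Dbp and Cdkn1a fasted knockout replicate 3 lies with fasted wild type and replicates 1 and 2 lie with or beyond the fed arrays, while in Pdk4, Cidec and Plin4 replicate 1 is the lowest of the 3.

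The fasted knockout arrays were therefore set against the wild type response one at a time. Over all 13942 genes, the slope of the array's difference from fed knockout on the wild type fasting difference was 0.14 for replicate 1, 0.33 for replicate 2 and 0.40 for replicate 3. Among the 163 called genes in which fasted wild type departs alone, where 0 is the fed knockout mean and 1 the fasted wild type mean, the median position was -0.12, 0.05 and 0.07. No such gene on replicate 1 and 2 on each of the others had passed the midpoint; these genes were chosen with these arrays, which fixes their place near fed knockout. A clock score, the mean of standardised evening genes minus that of output genes, was -1.86, -1.58 and 2.06 on the fasted knockout arrays, between 1.69 and 2.26 in fasted wild type, and between -1.58 and -0.36 in the fed groups. With this score as a covariate 177 genes were called, 142 of them among the 294. Without fasted knockout replicates 1 and 2 the group had 1 array, and no gene was called by limma while 2561 had an unadjusted p under 0.05; the lone array is assumed there to vary like the other groups.

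Many of the calls depended on single arrays. The number of called genes was 83 and 120 without fed wild type replicate 1 or 2, 13 and 2 without fed knockout replicate 1 or 2, 60, 40 and 56 without fasted wild type replicate 1, 2 or 3, and 52, 246 and 360 without fasted knockout replicate 1, 2 or 3. Of the 294 genes, 293 lost the call in at least 1 omission and 261 in at least 5, with a median of 8 of 10. The fasting differences between single arrays do not overlap between the genotypes in any of the 294, so that an omission cannot turn their sign. Over all 13942 genes, 3129 (22.4%) were without overlap. A small p on the same arrays favours such a separation, so it is no separate support for the calls. Each fed group has 2 arrays, so an omission leaves 1 there, whose spread is assumed to equal that of the other groups. Genes for which few omissions are given above, such as Cyp7a1, Dnmbp and Mvk, lost their calls less often than most called genes.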

How the data were processed

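The table that the authors deposited holds linear intensity values, 1 for each probe set on an array. The submitters' processing notes name RMA and Affymetrix Expression Console; the genome build was not given in the sources used here. On each array 228 to 489 values were below 0.1, unusual for RMA, so the exact summary method is unknown. The log2 of each deposited intensity was used with no further normalization; array medians lay between 43.5 and 47.5 intensity units. Of 41345 probe sets, 23521 have 1 symbol in the platform annotation, 1814 several and 16010 none; no symbol needed an update through the RefSeq table. Probe sets above the array's 50th percentile on 2 or more arrays were kept, with the brightest standing for its gene (519 genes had several).

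The fit in limma 3.58.1 (R 4.3.3) used a mean for each of the 4 groups over the 10 arrays, with empirical Bayes moderation, 6 residual and 3.63 prior degrees of freedom. Benjamini-Hochberg adjustment ran over 13942 genes, and called genes are those with an adjusted p under 0.05. The script was tested on simulated data. The precision is limited by the number of arrays, 2 per fed and 3 per fasted group. The comparison, its lists and alternatives were chosen with earlier results of these data known. The naming rule took Pml, up to 8 called genes per departing group and direction with the largest interaction and no overlap of array differences, and list members with the smallest p; other genes are said to be named after their values were seen. Promoter sequences are RefSeq's (GRCm38.p6) and motifs were searched on both strands. A further motif, the E-box CACGTG, was in 1014 of 10936 promoters (9.27%). It was in 12 of 145 called higher genes (8.28%) and in 8 of 86 called lower genes (9.3%). The listed stretches of Ppp1r3g and Tacc2 did not hold the E-box. Alternatives were other array scales, an offset of 16, other filters (none, or the 70th percentile), the mean of probe sets, trend and robust moderation, array weights, a replicate block, the clock score as a covariate, values floored at the array median, and omission of arrays. The clock score uses 5 evening genes and 7 of 8 output genes.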

Additional observations from a re-analysis of the deposited data

Results flagged for a closer look

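Each result here passed the test of a difference between the genotypes in the same contrast, fasted against fed. The interaction was called for 294 genes (limma, adjusted p under 0.05 over 13942 genes). The values that follow are the interaction in log2 units for the called genes that are named. Among genes with fasted wild type low alone, Lgr5, Cyp2g1, Gins1, Akr1c6, Cyp2r1, Stap1 and Dnph1 measured 3.40, 3.31, 2.19, 2.10, 1.99, 1.98 and 1.82, in that order. Igtp, Hsd3b3, Apol9b, Gbp3, Gbp7, Phka2 and Gyg had values of 1.82, 1.81, 1.71, 1.66, 1.55, 1.14 and 1.09. Ifih1, Igfals, Ccng1 and Pcna stood at 1.02, 0.80, 0.77 and 0.69. Among genes with fasted wild type high alone, an immunoglobulin kappa variable segment, Ccng2, Ccn2, Hilpda, Atg16l2, Cnnm4 and Tnfrsf12a came to -2.38, -2.31, -2.15, -1.98, -1.81, -1.78 and -1.77, in that order. Sh3pxd2a reached -1.65. Among genes with fed wild type low alone, Ppp1r3g, Angptl4, Lpin1, Il1rn, Acot3, Zbtb16 and Lpin2 measured -5.82, -2.02, -1.98, -1.96, -1.86, -1.81 and -1.76, in that order. Lgals4, Acaa1b, Cebpb, Il6ra and Nr1i2 had values of -1.72, -1.65, -1.45, -0.97 and -0.81. Among genes with fed wild type high alone, Fabp5, Cyp51, Zfp157, Pde4b, Zfp324, Ola1 and Chsy3 stood at 2.08, 1.75, 1.35, 1.18, 1.11, 0.91 and 0.87, in that order. Among genes with crossed means, Pdgfrl, Cyp7a1, Tacc2, Tmc7, Mcm4, Adam11 and Dnmbp came to -3.58, 3.57, -2.64, -2.30, 2.20, -1.83 and -1.82, in that order. Nuak2, Trim13, Osgin2, Rhpn2, Ttc23, Mis18a and Map3k13 reached 1.78, 1.75, 1.73, -1.63, -1.57, 1.52 and -1.49. Fuca2, Lsm8 and Foxo1 measured 1.47, 1.47 and -1.25. Among genes with graded means, Igfbp1, Acot2, Mvk, Pctp, Jun, Fkbp5 and Mmab had values of -3.25, -2.52, 2.21, -2.05, -1.70, -1.64 and 1.60, in that order. Nsdhl, Slc35g1, Msmo1, Ppp2r2d, Ssxb1, Pex11a and Rnf43 stood at 1.60, -1.54, 1.54, -1.51, -1.44, -1.40 and 1.31. Mblac2, Cyp2b10, Camk1d, Fdft1 and Pnpla2 came to 1.31, -1.28, 1.25, 1.25 and -1.13. Among genes with fasted knockout low alone, Zfand4 and Rhd reached -1.21 and -1.17, in that order. Among genes with fed knockout low alone, Pinx1 and Rpusd2 measured 1.35 and 0.97, in that order. Among genes with fed knockout high alone, Plekhf1 had a value of -1.53. With values at or below the array median raised to it, Gins1 and Osgin2 were no longer called, and Chsy3 was not called with the mean of its probe sets. The cause of these differences was not tested.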

How the results depend on the processing

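Against 294 called genes, the count was 501 with the filter at the 70th percentile, 520 with trend and robust moderation, 460 with values below the array median set to it (chosen after seeing the data), 177 with the clock score as a covariate, 1 with no filter on dim probe sets and 0 without fasted knockout replicates 1 and 2 (2561 at an unadjusted p under 0.05). Without 1 array it ranged from 2 to 360. The replicate block gave 137 called genes, 117 of them shared; the labels do not say that numbers pair samples, and the correlations of same-numbered deviations ran from -0.17 to 0.11 over 13 pairs, 1 of them above 0.1. Centring of arrays, repeated quantile normalization, an offset of 16, the mean of probe sets and array weights gave 221, 285, 424, 292 and 338. Each called gene kept its sign in all alternatives that measured it, which omissions of an array could not have changed; the 70th percentile measured 253 of them. The cause of these differences in counts was not tested.

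The medians of the cholesterol, interferon, cell cycle, fatty acid oxidation, lipid droplet, immediate early and heat shock lists kept their sign in all 22 alternatives. Centring each array gave medians of -0.18 for insulin and FoxO targets, -0.038 for PML nuclear body and SUMO genes, -0.10 for oxidative phosphorylation and -0.15 for periportal genes. With the clock score as a covariate, fatty acid oxidation was at -0.39 and clock repressors and outputs at -0.21. Without fasted knockout replicates 1 and 2, the medians were -0.39 for fatty acid oxidation, -0.0072 for evening clock genes, -0.83 for clock repressors and outputs, 0.18 for PML nuclear body genes, -0.12 for drug metabolism, 0.49 for growth hormone and steroid genes, 0.48 for the cell cycle and 0.032 for periportal genes. The floor at the array median gave 0.46 for the cell cycle. Without 1 array, the medians ranged from -1.13 to -0.82 for lipid droplets, -0.21 to 0.19 for lipogenesis, 0.72 to 1.10 for cholesterol, -0.22 to 0.0014 for insulin and FoxO targets, -0.43 to -0.15 for the ATF4 list, 0.089 to 0.23 for bile acids, 0.19 to 0.67 for growth hormone and steroid genes and -0.058 to 0.043 for oxidative phosphorylation. Signal near the array median limits, among others, Lgr5, Gins1, Mcm4, Trim13, Osgin2, Mis18a and Rhd, as their floored values show. It also touches Pdgfrl, Rpusd2, Cyp2g1 and Mvk, which measured -3.11, 0.81, 3.22 and 2.13 with the floor. Among these genes the floor ended the calls of Gins1 and Osgin2.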

Other observations

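Steroid and retinoid enzymes held further large differences that were not called; these genes were picked after their values had been seen. Hsd3b5, a male-biased steroid dehydrogenase whose relatives may share its probes, had log2 intensities of 10.48 and 9.99 (wild type fed), 6.25 and 8.04 (knockout fed), 5.51, 6.90 and 4.35 (wild type fasted) and 6.55, 5.93 and 5.17 (knockout fasted). Its interaction was 3.38 (SE 1.02, adjusted p = 0.114); the fed knockout arrays lay below the fed wild type arrays and differed from each other by more than 1 unit. Cyp26a1, which degrades retinoic acid, had 7.34 and 7.36 (wild type fed), 5.32 and 6.86 (knockout fed), 3.08, 4.51 and 3.18 (wild type fasted) and 5.64, 4.65 and 3.49 (knockout fasted), and an interaction of 2.27 (SE 0.92, adjusted p = 0.209); 6 of its arrays lay at or below the array median, and with those values raised to it the interaction was 1.18. Rgs16, a regulator of G protein signalling that feeding state is known to move in liver, had 8.37 and 6.78 (wild type fed), 10.96 and 11.34 (knockout fed), 9.77, 9.65 and 9.50 (wild type fasted) and 10.77, 9.98 and 8.27 (knockout fasted). Its fed genotypes did not overlap, and the interaction was -3.54 (SE 0.90, adjusted p = 0.0762). Angptl8, an insulin-induced partner of the lipase inhibitors, had an interaction of 2.14 (SE 0.71, adjusted p = 0.14) with a fasting difference of -2.59 in wild type and -0.45 in knockout.

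Zbtb16 lies on chromosome 9 within 100 tested genes of Pml. Of the 200 tested genes nearest to Pml along that chromosome, 100 on either side, 5 were called in the interaction (2.5%, against 2.11% of all genes): Zbtb16, Commd4, Fam219b, Nxpe2 and 1 with a predicted symbol. With values at or below the array median raised to it, Fam219b went from 1.11 to 0.06 and was no longer called (adjusted p = 0.86). These were named for their place, after their values had been seen.

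In 220 of the 294 called genes (74.8%, against 25.2% of all genes), all 3 fasted knockout arrays lay on the fed knockout side of the midpoint between the fed knockout and the fasted wild type mean. In 161 called genes (54.8%, against 38.6%), the fasting difference had opposite signs in the genotypes. The test uses these same arrays, so both shares are descriptions.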
